A study of Mus musculus with 6 samples.

Results

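A set of glial marker genes of the retina was followed in RNA from sorted retinal vascular endothelial cells (VECs). It holds 10 of the 55487 genes in the deposited table, which were chosen by name. Glul, Rlbp1, Slc1a3, Vim, Sox9, Clu and Aqp4 are the 7 genes of Müller glia, and Gfap, Pax2 and Pdgfra are the 3 genes of retinal astrocytes. VECs were sorted from retinas of 3 Bmal1 FL/FL;tdTomato FL/+;Pdgf-icreER animals (Bmal1;CKO) and 3 tdTomato FL/+;Pdgf-icreER animals (control), which gave 3 libraries a group. The sources used here do not say whether a library holds the retinas of 1 animal. Both groups carried the tamoxifen-inducible Cre and the tdTomato reporter on a C57BL/6J background. Tamoxifen was given between P0.5 and P2.5 in both, and retinas were collected at P7.5. The Pdgf-icreER transgene is active in endothelial cells and also carries GFP, and cells positive for GFP and tdTomato were kept. The study asked what deletion of the clock gene Bmal1 from the endothelium does to the developing retinal vessels, and the comparison here is how the glial genes read in the same libraries.

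Müller glia are the radial glia of the retina. They clear glutamate and potassium from the extracellular space, handle retinoids for the photoreceptors and keep some features of the progenitors from which they arise. Astrocytes enter the retina from the optic nerve, spread ahead of the growing vessels in response to PDGF-A, and form the scaffold on which the superficial vascular plexus grows. Neither is an endothelial cell. Vim is also made by endothelial and mural cells, and Glul and Clu are made by several other cell types, so not every gene of the set is particular to glia. In RNA from many cells, fewer cells of a type and less RNA per cell cannot be told apart.

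The proteins encoded by Glul (glutamine synthetase), Rlbp1 (the retinaldehyde binding protein CRALBP) and Slc1a3 (the glutamate transporter GLAST) carry out the metabolic work of Müller glia. Their promoters are shown because BMAL1, with its partner CLOCK, binds E-box motifs. Each is given from 150 bases before the start of the transcript to the last base before it, in the direction of transcription, from RefSeq on GRCm38.p6, with E-boxes of the form CANNTG in capitals. The Glul stretch is chr1:153899779-153899928 on the forward strand, the Rlbp1 stretch chr7:79387028-79387177 on the reverse strand, and the Slc1a3 stretch chr15:8710808-8710957 on the reverse strand.
Glul: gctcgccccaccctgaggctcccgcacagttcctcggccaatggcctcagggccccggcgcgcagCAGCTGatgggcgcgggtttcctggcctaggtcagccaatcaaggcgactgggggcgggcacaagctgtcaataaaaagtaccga
Rlbp1: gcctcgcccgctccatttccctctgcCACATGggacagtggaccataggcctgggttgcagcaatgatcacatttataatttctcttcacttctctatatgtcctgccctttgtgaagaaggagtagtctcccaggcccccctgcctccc
Slc1a3: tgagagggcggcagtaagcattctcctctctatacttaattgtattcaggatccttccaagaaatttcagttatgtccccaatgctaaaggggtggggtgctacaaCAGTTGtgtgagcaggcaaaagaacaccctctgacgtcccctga

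The E-box lies 85 bases before the start in Glul (CAGCTG), 124 in Rlbp1 (CACATG) and 44 in Slc1a3 (CAGTTG). In the longer windows from 250 bases before to 50 bases after the start, 6 of the 9 windows held for 7 of the 10 genes had a CANNTG motif, against 72.3% of all 32851 windows. The canonical E-box CACGTG, which is a form of CANNTG, was in 0 of the 9 windows and in 7.15% of all. Both motifs read the same on both strands in their fixed letters. These letters describe the windows only.

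The deposited values are reads per gene divided by a size factor of the library, here called normalized counts. The libraries had 71145068 to 104017800 reads on genes, and a count of 0 allows up to 3 reads, which is 2.14 to 4.22 normalized counts and covers counting error only. The targeted gene Arntl (Bmal1) had 1700, 3489 and 2928 normalized counts in control libraries 1, 2 and 3, and 1779, 2747 and 2415 in Bmal1;CKO libraries 4, 5 and 6. The groups overlapped, with a log2 fold change of -0.19 ± 0.36 (SE, adjusted p = 0.924 by limma-trend). The table holds 1 value for the whole gene, and the floxed exon alone was not analysed here. By droplet digital PCR, the study reported a significantly lower Bmal1 transcript in sorted endothelial cells of the same mutant genotype than in control. All 14 endothelial markers had at least 10 reads in every library, with sums of 115764 to 373545 normalized counts, whereas 9 microglia and macrophage markers summed to 1401930 to 4233490. Control library 1 was the lowest of the 6 in 31.8% of the tested genes and the highest in 26.9%. These shares were not taken for the other libraries.

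Of the 10 glial genes, 8 had at least 10 reads in at least 3 libraries and were tested among 20459 genes with limma-trend, a linear model on log2(normalized count + 1). Aqp4 and Pax2 were below that limit. At a false discovery rate (FDR) of 0.05 by the Benjamini-Hochberg method, 0 of the 8 genes passed, as did 0% of all tested genes, where the smallest adjusted p was 0.110. DESeq2 without shrinkage called 67 genes across the table and 0 of the 8. At an unadjusted p under 0.05, 1 of the 8 genes (Sox9) passed, against 4.92% of all tested genes. Without control library 1 this was 3 of the 8, as Glul (0.00770) and Gfap (0.0410) joined Sox9 (0.0407) by limma-trend, with adjusted p of 0.482, 0.566 and 0.566. The count over all tested genes was then 1746 in place of 1007. The filter on reads was applied anew to the libraries left, which can only lower the 20459 tested genes. The share of all tested genes was not taken for that fit, so the 3 of the 8 have no share beside them. All 3 Bmal1;CKO libraries lay above all 3 control libraries for 1 of the 8 (Sox9), against 6.62% of all tested genes, and below them for 0 of the 8, against 4.54%. With 3 libraries in each group, the smallest p of an exact permutation test is 0.1. The p-values measure only the spread between these libraries, part of which may be technical.

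The 10 genes together held 0.0743% to 0.0928% of the reads of a library. The Müller glia genes summed to 80688, 67003 and 63529 normalized counts in control libraries 1, 2 and 3, and to 89348, 62040 and 67702 in Bmal1;CKO libraries 4, 5 and 6. Vim, which endothelial and mural cells also make, was the largest part of each of these sums, from 21310 in Bmal1;CKO library 5 to 44882 in control library 1. The astrocyte genes summed to 392, 1963 and 5451 in control and to 1727, 1693 and 1000.1 in Bmal1;CKO. The Müller sums of the 2 groups thus overlapped, while the astrocyte sums of the control libraries ran both below and above all those of Bmal1;CKO.

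**Figure D1:**
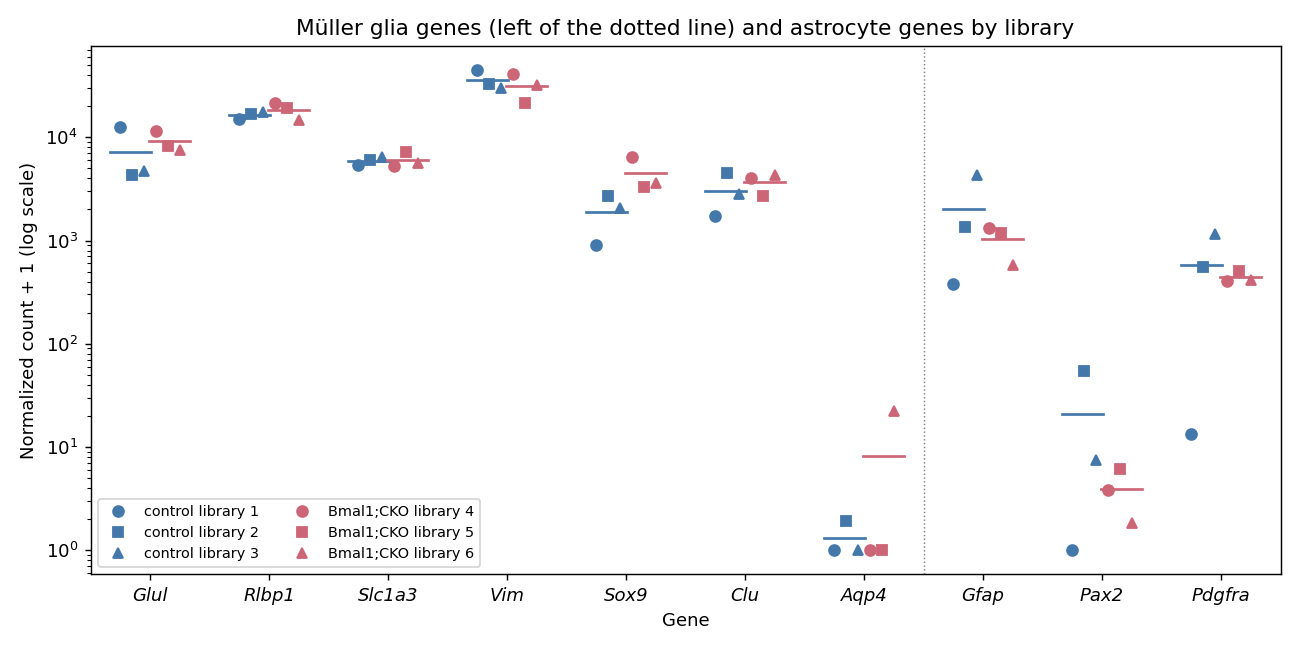
Normalized count + 1 on a log axis for each of the 10 genes, with a point for each library (control blue, Bmal1;CKO red) and a bar at the mean of the 3 libraries. The groups overlap in every gene but Sox9, and control library 1 (blue circle) has 0 reads for Pax2 and 12.3 normalized counts for Pdgfra.

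To compare genes with each other, the normalized counts were divided by the length of the exons in kilobases. Per kilobase, Vim was highest at 7080 ± 1753 (SD, n = 6 libraries), followed by Rlbp1 at 5914 ± 836 and Glul at 2460 ± 1040. Clu (974 ± 322), Sox9 (768 ± 456) and Slc1a3 (699 ± 85.8) followed, then Gfap (359 ± 335) and Pdgfra (50.9 ± 37.3). Pax2 (2.13 ± 3.86) and Aqp4 (0.598 ± 1.39) stood last. Of the neighbours in this order, Rlbp1 and Glul were the one pair whose ranges over the 6 libraries did not overlap. Gfap exceeded Pdgfra, and Pdgfra exceeded Pax2, in 6 of 6 libraries. Sox9 exceeded Slc1a3 in 2 of 6, so their order rests on few libraries.

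Glul (ENSMUSG00000026473, chromosome 1, 153899944 to 153909723, forward strand) encodes the enzyme that turns glutamate into glutamine. It had 12673, 4315 and 4673 normalized counts in control libraries 1, 2 and 3, and 11609, 8294 and 7482 in Bmal1;CKO libraries 4, 5 and 6. Control library 1 was the highest of all, and the other control libraries were the lowest. The means were 7220 ± 4726 in control and 9128 ± 2186 in Bmal1;CKO (SD, n = 3 each), which gave a log2 fold change of 0.50 ± 0.44 (SE, adjusted p = 0.883 by limma-trend). Without control library 1 the log2 fold change was 1.00, and without control library 2 it was 0.22. Exons of Glul share 116 bases with Teddm2 on the opposite strand and 93 bases with Mir8114, and the counting is not stated to use strand, so reads there cannot be told apart.

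Slc1a3 (ENSMUSG00000005360, chromosome 15, 8634124 to 8710764, reverse strand) encodes the transporter that takes up glutamate from the extracellular space. It had 5331, 5998 and 6393 normalized counts in control and 5294, 7190 and 5585 in Bmal1;CKO. It varied least of the 8 tested genes, with a coefficient of variation of 12.3% over the 6 libraries. The means were 5907 ± 536 and 6023 ± 1021 (SD, n = 3 each), and the log2 fold change of 0.019 ± 0.24 (SE, adjusted p = 0.990 by limma-trend) lay between -0.12 without Bmal1;CKO library 5 and 0.11 over the libraries left out.

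Aqp4, the water channel of glial endfeet (ENSMUSG00000024411, chromosome 18), had 0, 1 and 0 reads in control and 0, 0 and 26 reads in Bmal1;CKO. It was at or below the limit of 3 reads in 5 of 6 libraries and was not tested. Among 15 other genes for glutamate, potassium, water and bicarbonate handling in glia, 14 were tested. Of these, 6 had a higher and 8 a lower mean in Bmal1;CKO on the log2 scale, with a median log2 fold change of -0.15 against 0.11 for all tested genes. That median ran from -0.29 without control library 1 to 0.13 without Bmal1;CKO library 4, and was 0.0038 and 0.012 without control libraries 2 and 3, so single libraries turned its sign. The range ran from -1.01 for Dag1, the dystroglycan that anchors aquaporin-4, to 1.91 for Mlc1, a membrane protein of glial endfeet.

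Dag1 was the 1 gene of these 14 at an unadjusted p under 0.05 (4.92% of all tested genes) and the 1 gene whose Bmal1;CKO libraries all lay below control (4.54% of all), counts near those shares. It had 4572, 2769 and 3186 normalized counts in control and 1366, 1433 and 2511 in Bmal1;CKO (log2 fold change -1.01 ± 0.35 SE, adjusted p = 0.883 by limma-trend). Every Bmal1;CKO library lay below every control library. Mlc1 had 2.46, 531 and 1966 normalized counts in control and 540.1, 645 and 546 in Bmal1;CKO. Its control libraries lay below and above the Bmal1;CKO libraries, and without control library 1, which had 2 reads, its log2 fold change was -0.83.

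Rlbp1 (ENSMUSG00000039194, chromosome 7, 79374870 to 79387048, reverse strand) encodes a carrier of 11-cis-retinal in the visual cycle, the pathway that restores the light-sensitive chromophore. It had 15178, 16635 and 17671 normalized counts in control and 21263, 19238 and 14831 in Bmal1;CKO. The highest and the lowest library were both Bmal1;CKO. The means were 16495 ± 1252 and 18444 ± 3288 (SD, n = 3 each), with a log2 fold change of 0.15 ± 0.24 (SE, adjusted p = 0.909 by limma-trend) and a coefficient of variation of 14.1%.

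Of 11 other genes of the visual cycle, 10 were tested, 7 with a higher and 3 with a lower mean in Bmal1;CKO and 0 at an unadjusted p under 0.05. Their median log2 fold change was 0.36, with 0.16 without control library 2 and 0.53 without Bmal1;CKO library 4 as its extremes over the libraries left out, and 0.19 with edgeR and TMM scaling or with DESeq2. They ran from -0.46 for Rdh12, a retinol dehydrogenase of photoreceptors, to 3.21 for Rdh5, the 11-cis-retinol dehydrogenase. Rdh5 had 0, 414 and 407 normalized counts in control and 595, 413 and 540 in Bmal1;CKO, and its log2 fold change was 0.31 without control library 1, which had 0 reads. Rpe65, which marks the pigment epithelium, had at most 28 reads in any library. Other pigment epithelium genes were unequal in level. Pmel had 1.23 normalized counts in control library 1 and 506 to 974 in the others, while Tyr had at most 42.2.

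Vim (ENSMUSG00000026728, chromosome 2, 13573927 to 13582826, forward strand) encodes vimentin, the intermediate filament of Müller glia and of endothelial cells. It had 44882, 32870 and 29950 normalized counts in control and 40676, 21310 and 31806 in Bmal1;CKO. Bmal1;CKO library 5 was the lowest, as it was for the sum of the 14 endothelial markers. The means were 35901 ± 7914 and 31264 ± 9695 (SD, n = 3 each), and the log2 fold change was -0.23 ± 0.32 (SE, adjusted p = 0.903 by limma-trend). Without Bmal1;CKO library 5 it was 0.025.

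Gfap (ENSMUSG00000020932, chromosome 11, 102887336 to 102900912, reverse strand) encodes the filament that marks astrocytes and reactive Müller glia. It had 380.2, 1360 and 4277 normalized counts in control and 1318, 1177 and 582 in Bmal1;CKO. The control libraries held both the lowest and the highest value. The means were 2006 ± 2027 and 1026 ± 391 (SD, n = 3 each), with a log2 fold change of -0.43 ± 0.83 (SE, adjusted p = 0.925 by limma-trend). This was -1.32 without control library 1 and 0.43 without control library 3, so 1 library decides the sign. The median of the 8 other intermediate filament genes was 0.34, with 5 higher and 3 lower, but it was -0.31 without control library 1, -0.14 without Bmal1;CKO library 4, 0.65 without control library 3, -0.12 with edgeR and TMM scaling and -0.11 with DESeq2. These genes ran from -0.76 for Synm (synemin, which joins vimentin filaments) to 1.96 for Des (desmin of mural cells), and 0 were at an unadjusted p under 0.05. Des had 1.23, 498 and 2964 normalized counts in control and 1329, 247 and 585 in Bmal1;CKO, and its log2 fold change was -1.07 without control library 1.

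Sox9 (ENSMUSG00000000567, chromosome 11, 112782224 to 112787760, forward strand) encodes a transcription factor of retinal progenitors, Müller glia and astrocytes. It had 896, 2696 and 2044 normalized counts in control and 6463, 3314 and 3635 in Bmal1;CKO. All 3 Bmal1;CKO libraries lay above all 3 control libraries, also with TMM scaling of the library sizes. The lowest Bmal1;CKO library was Bmal1;CKO library 5, and the highest control library was control library 2. The means were 1879 ± 911 and 4470 ± 1733 (SD, n = 3 each), which gave a log2 fold change of 1.33 ± 0.47 (SE). The p-value was 0.0238 unadjusted and 0.883 adjusted by limma-trend, and 0.1, the smallest possible, by a two-sided exact permutation test. Without control library 1 the log2 fold change was 0.86, and without Bmal1;CKO library 4 it was 1.03 with an unadjusted p of 0.0937 by limma-trend. Over the alternatives the adjusted p ran from 0.380 to 1.00.

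Among 14 other transcription factors of Müller glia and astrocytes, 11 had a higher and 3 a lower mean in Bmal1;CKO, and 1 was at an unadjusted p under 0.05, against 4.92% of all tested genes. The median log2 fold change was 0.52, and ran from 0.25 without control library 1 to 0.68 without Bmal1;CKO library 6. Control library 1 was the lowest of the 6 for 9 of the 14, against 31.8% of all tested genes. They ran from -0.33 for Hes1, an effector of Notch signalling, to 3.61 for Sox2, a factor of progenitors and glia. Sox2 had 0, 1583 and 742 normalized counts in control and 1549, 1823 and 764 in Bmal1;CKO, so its groups overlapped. Without control library 1, which had 0 reads, its log2 fold change was 0.25.

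In 3 of the 14, Hes5, Lhx2 and Rax, all Bmal1;CKO libraries lay above all control libraries, against 6.62% of all tested genes. Hes5, a second Notch effector, had 987, 4024 and 2041 normalized counts in control and 21468, 6749 and 4510 in Bmal1;CKO (log2 fold change 2.11 ± 0.68 SE, unadjusted p = 0.0157 and adjusted p = 0.883 by limma-trend). Bmal1;CKO library 4 stood far above the rest, and without it the log2 fold change was 1.46. Lhx2, a LIM homeodomain factor needed for Müller glia, had 1959, 2621 and 2131 in control and 4273, 3617 and 2658 in Bmal1;CKO (log2 fold change 0.64 ± 0.29 SE). Rax, a homeobox factor of the early eye that stays on in Müller glia, had 24999, 23995 and 20390 in control and 38451, 39697 and 25051 in Bmal1;CKO (log2 fold change 0.55 ± 0.27 SE). In Lhx2 and Rax the lowest Bmal1;CKO library exceeded the highest control library by little. Bmal1;CKO library 6 was that lowest library in Hes5, Lhx2 and Rax.

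**Figure D2:**
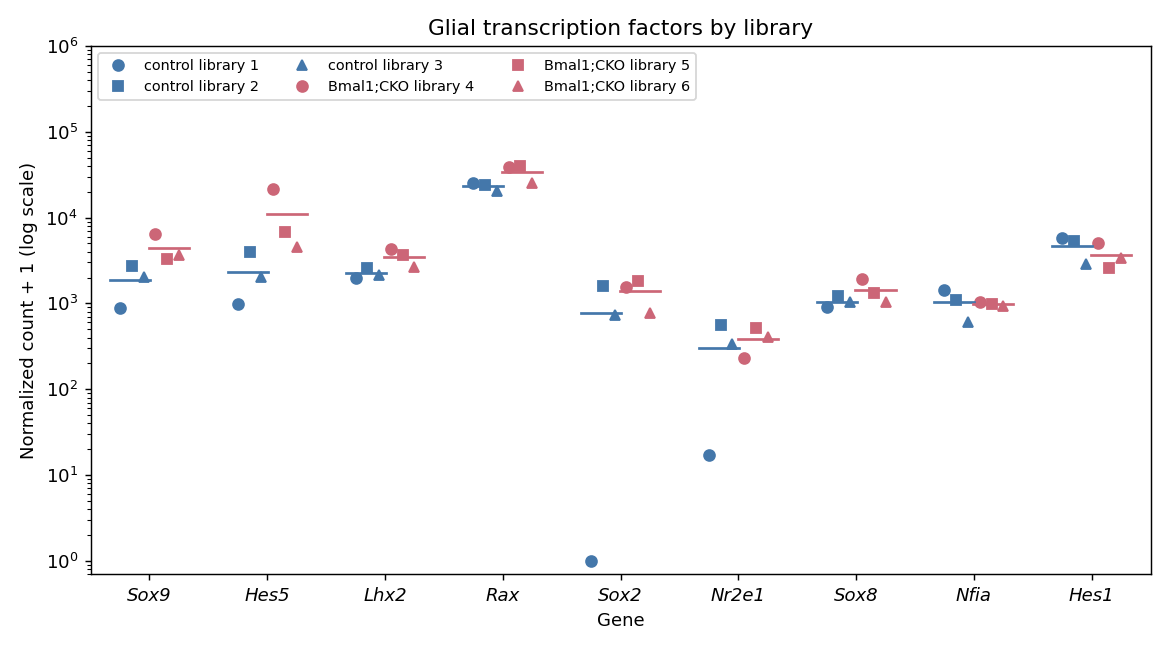
Normalized count + 1 on a log axis for Sox9 and 8 of the 14 other glial transcription factors, with a point for each library and a bar at the group mean. In Sox9, Hes5, Lhx2 and Rax all red points lie above all blue points, and control library 1 lies lowest for Sox2, where it has 0 reads, and for Nr2e1.

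Clu (ENSMUSG00000022037, chromosome 14, 65968483 to 65981547, forward strand) encodes clusterin, a secreted chaperone. It had 1727, 4489 and 2797 normalized counts in control and 4044, 2693 and 4341 in Bmal1;CKO. Control library 1 was the lowest and control library 2 the highest. The means were 3004 ± 1392 and 3693 ± 878 (SD, n = 3 each), and the log2 fold change was 0.37 ± 0.40 (SE, adjusted p = 0.886 by limma-trend). Without control library 1 it was 0.029.

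Pdgfra (ENSMUSG00000029231, chromosome 5, 75152292 to 75198215, forward strand) encodes the receptor through which PDGF-A guides retinal astrocytes. It had 12.3, 548 and 1167 normalized counts in control and 406, 510.5 and 418 in Bmal1;CKO. The Bmal1;CKO libraries lay close together and between the control libraries, of which control library 1 had 10 reads. The means were 576 ± 578 and 445 ± 57.1 (SD, n = 3 each), a lower mean in Bmal1;CKO, while the log2 fold change of limma-trend was 1.12 (standard error 1.53, adjusted p = 0.901). The sign of the difference thus depends on the scale, and without control library 1 the log2 fold change was -0.85. Exons of Pdgfra share 456 bases with Gm42802 and 166 bases with Gm42803 on the opposite strand, where reads cannot be told apart.

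The 5 other PDGF ligands and receptors split 3 higher and 2 lower, with a median log2 fold change of 0.32 and 0 at an unadjusted p under 0.05. The sign of that median turned to -0.23 without control library 1, -0.16 without Bmal1;CKO library 6, -0.58 with edgeR and TMM scaling, -0.57 with DESeq2 and -0.071 with a pseudocount of 10, while it was 1.15 without control library 3. Pdgfa, the ligand of Pdgfra, had the lowest at -0.37, with 3993, 1029 and 1575 normalized counts in control and 1817, 1531 and 1087 in Bmal1;CKO. Pdgfd, a ligand of the PDGF beta receptor, had the highest at 1.57, with 2.46, 364 and 57.9 in control and 132, 69.96 and 204 in Bmal1;CKO. In both, control library 1 was an extreme, the highest for Pdgfa and the lowest for Pdgfd, and without it the log2 fold changes were 0.18 and -0.23.

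Pax2, a transcription factor of the astrocyte lineage (ENSMUSG00000004231, chromosome 19, 44756045 to 44837871, forward strand), had 0, 58 and 9 reads in control and 2, 6 and 1 in Bmal1;CKO. It was above 10 reads in control library 2 alone and was not tested. The 3 astrocyte genes were thus unequal in level, from Gfap to a Pax2 near 0 in 3 of 6 libraries.

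The median log2 fold change was 0.26 over the 6 tested Müller glia genes and 0.34 over the 2 tested astrocyte genes, against 0.11 over all tested genes. Without control library 1 these medians were 0.059 and -1.09, and without control library 3 the astrocyte median was 1.40. With edgeR and TMM scaling the astrocyte median was -0.69. Of 19 other genes used for Müller glia, 18 were tested, 11 higher and 7 lower, with a median of 0.36, and -0.019 without control library 1, 0.19 without control library 2 and -0.042 with edgeR and TMM scaling. They ran from -0.66 for Cd9, a tetraspanin, to Sox2, with Hes5 at an unadjusted p under 0.05, and Hes5 and Lhx2 are also in the list of transcription factors. Of 15 other genes used for astrocytes, 12 were tested, 8 higher and 4 lower, with a median of 0.24 (0.089 without control library 1) and 0 at an unadjusted p under 0.05. They ran from -1.03 for Slco1c1, a thyroxine transporter, to 3.41 for Agt (angiotensinogen). Agt had 0, 155 and 344 normalized counts in control and 610.4, 315 and 332 in Bmal1;CKO, and its log2 fold change was 0.79 without control library 1.

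**Figure D3:**
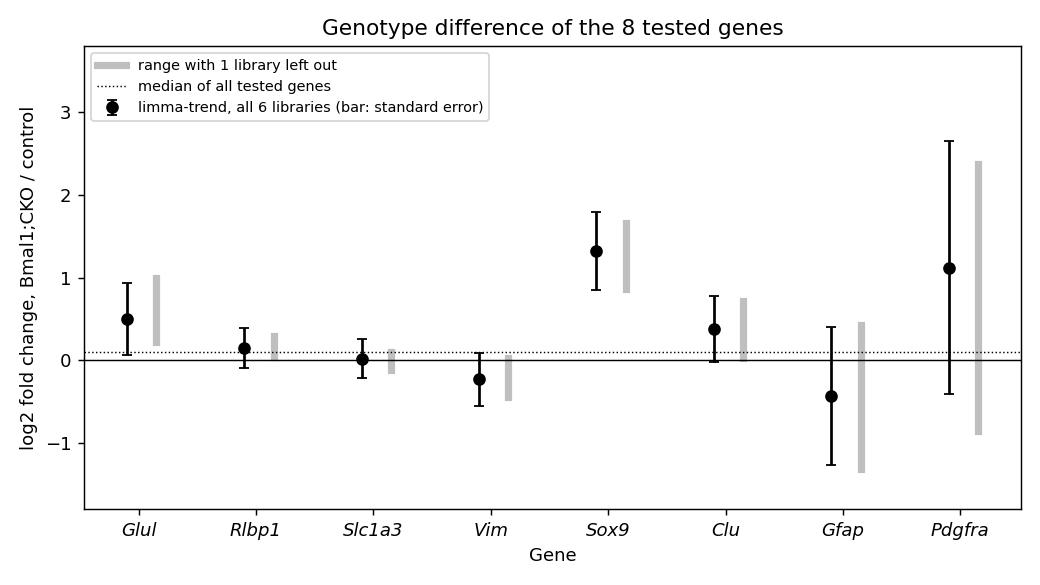
log2 fold change of Bmal1;CKO over control for the 8 tested genes (point, with the standard error of limma-trend as a bar) and, in grey, the range of the same value with 1 library left out at a time. The dotted line is the median of all tested genes, 0.11. The grey range crosses 0 for Slc1a3, Vim, Gfap and Pdgfra, and Sox9 stays between 0.86 and 1.66.

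Control library 1 did not have low values in all the glial genes. Against the median of the other 5 libraries, it held 169% for Glul and 141% for Vim, 85.9% for Rlbp1 and 88.9% for Slc1a3. It held 42.7% for Clu, 28.8% for Gfap, 27.0% for Sox9, 2.41% for Pdgfra and 0 reads for Pax2. Both tested astrocyte genes and 2 of the 6 tested Müller glia genes were lowest in this library. Agt, Rdh5, Sox2 and Hey2, a Notch effector, also had 0 reads there. This library had 87212411 reads on genes, but a read for only 21598 genes. That was the fewest of all libraries, against 22142 to 27904 in the others.

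The 10 genes did not share 1 pattern over the libraries. On the log2 scale, Pearson's r between 2 of the 8 tested genes ran from -0.94 (Slc1a3 and Vim) to 0.80 (Sox9 and Clu), and Gfap and Pdgfra had 0.79. These points share their library, its size factor and, at the low end, control library 1, so the coefficients over 6 libraries are descriptions. Of 9171 genes that reached 10 reads in every library and a mean of at least 1000 normalized counts, those most like Rlbp1 over the 6 libraries were Ndufa4l2 (r = 0.994), Zcchc17 (0.983) and Fam32a (0.974). Those most like Gfap were Atp5b (0.969), Gm15519 (0.967) and Fam219b (0.966). These genes were picked as the highest of 9171 coefficients over 6 libraries, and r does not weigh the size of a change. Atp5b ran from 109843 to 148080 normalized counts, whereas Gfap ran from 380 to 4277.

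Markers of other cell types were set beside these genes. The 14 endothelial genes all had a lower mean on the log2 scale in Bmal1;CKO (median log2 fold change -0.54, but -0.17 without control library 1, -0.20 without Bmal1;CKO library 5 and -0.88 without Bmal1;CKO library 6), with sums of 189694 to 373545 normalized counts in control and 115764 to 238453 in Bmal1;CKO. Of the 9 microglia and macrophage genes, 8 were higher (median 0.41, but 0.91 if control library 1 was left out and 0.088 if control library 2 was), with sums of 1401930 to 4233490 in control and 2039960 to 4135580 in Bmal1;CKO. Of the 10 mural genes 9 were tested, 5 higher and 4 lower (median 0.59, but -1.35 if control library 1 was left out, 1.97 if control library 3 was, -0.28 without Bmal1;CKO library 6, and -1.33 with edgeR and TMM scaling), with sums of 5165 to 55746 in control and 7241 to 10188 in Bmal1;CKO. Of the 12 rod genes 11 were lower (median -0.26, but 0.036 without Bmal1;CKO library 4 and -0.49 without Bmal1;CKO library 5), with sums of 904625 to 1151100 in control and 660752 to 1112350 in Bmal1;CKO. The 7 tested ganglion cell genes of 8 split 3 higher and 4 lower (median -0.23, but -0.71 without control library 1 and 0.11 without Bmal1;CKO library 5), with sums of 15651 to 24232 and 14338 to 15860. Of 8 pigment epithelium genes 7 were tested, 5 higher (median 1.38, but -0.14 without control library 1 and 0.43 with edgeR and TMM scaling), with sums of 1152 to 3085 and 2034 to 2696.

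Genes of the oligodendrocyte lineage and of fibroblasts, cells that can also carry Pdgfra, were counted as well. Of 8 oligodendrocyte genes, 7 were tested and all 7 were higher (median 0.93, from 0.57 without control library 1 to 2.02 without Bmal1;CKO library 5, and 0.47 with edgeR and TMM scaling). Their sums were 3086 to 6402 in control and 5074 to 6783 in Bmal1;CKO. The genes were unequal in level over the 6 libraries. The lineage factor Sox10 had at most 2 reads in any library, while Mbp had 1532 to 3235 and Mag 737 to 2412 normalized counts. Of 8 fibroblast genes, 4 were tested, 1 higher and 3 lower (median -0.69, from -1.10 without control library 1 to -0.34 without Bmal1;CKO library 5, and -1.43 with edgeR and TMM scaling), with sums of 1161 to 2756 and 913 to 1896. Lum had 0 reads in every library, and Dpt had at most 1 read, while Fbln1 had 709 to 1476 normalized counts. The part of these cell types in the values of the glial genes was not tested.

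Glul followed the order of the summed microglia and macrophage markers over the libraries. Pearson's r was 0.976 and Spearman's rho was 1.00 over the 6 libraries on the log2 scale, and r was 0.934 without control library 1 and Bmal1;CKO library 4, the libraries farthest from the median. This was the highest of 64 such relations (8 genes by 8 marker lists) and was singled out after the values were seen. Per 1000 normalized counts of the 9 markers, Glul had 2.99, 3.08 and 2.77 in control libraries 1, 2 and 3, and 2.81, 2.995 and 3.67 in Bmal1;CKO libraries 4, 5 and 6. The highest ratio was 1.32 times the lowest, whereas Glul itself varied 2.94-fold and the summed markers 3.02-fold. The ratio was 2.95 ± 0.159 in control and 3.16 ± 0.452 in Bmal1;CKO (SD, n = 3 each, two-sided exact permutation test, p = 0.6). The same ratio for Rlbp1 varied 3.31-fold, from 3.59 to 11.9. The sum of the 9 markers is mostly C1q genes, with C1qb at 1855100 of 4233490 normalized counts in control library 1. C1qa, C1qb and C1qc each had the order of the sum, but not every marker did. P2ry12 (50379 normalized counts) and Csf1r (118104) were highest in Bmal1;CKO library 6, and Cx3cr1 (173617) in Bmal1;CKO library 4.

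The next highest relations were Clu with the pigment epithelium markers (r = 0.924, and 0.838 without control libraries 1 and 3), Vim with the endothelial markers (r = 0.896) and Gfap with the mural markers (r = 0.882). The Vim relation was 0.0925 without control library 1 and Bmal1;CKO library 5, and the Gfap relation was -0.0405 without control libraries 1 and 3. Those relations thus rest on 2 libraries each. Control library 3, which was highest for Gfap and Pdgfra, also had the highest mural sum, 55746 normalized counts.

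**Figure D4:**
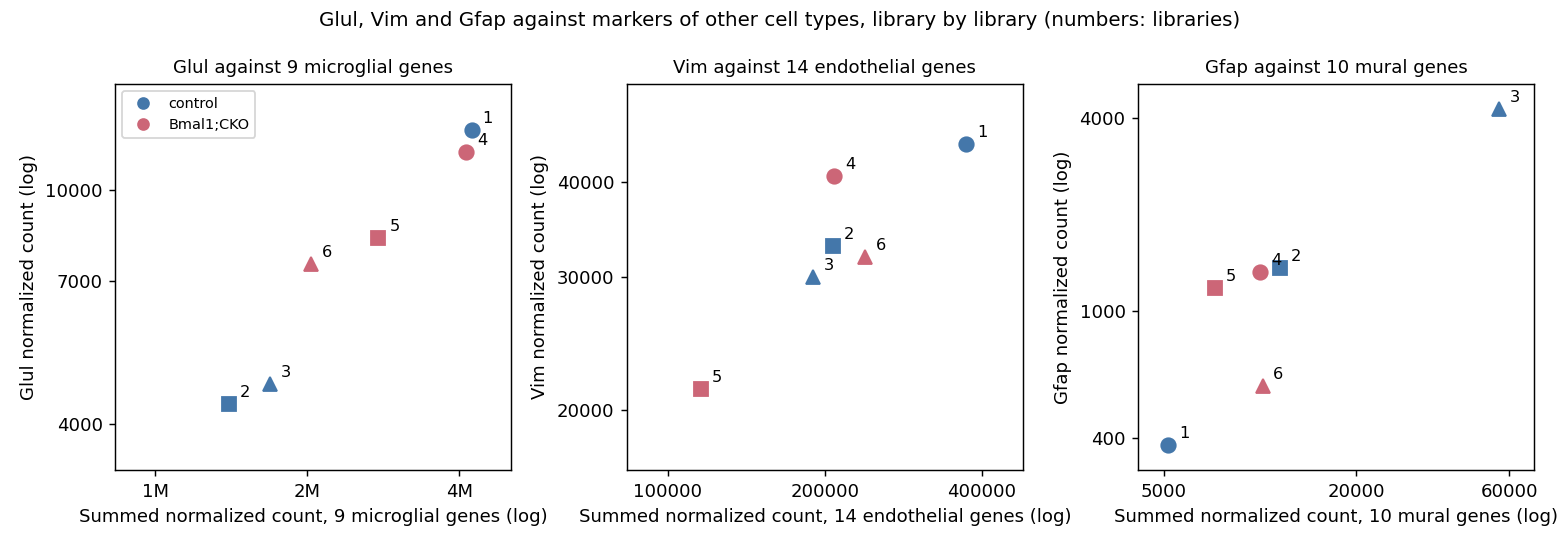
Normalized counts of Glul, Vim and Gfap (vertical, log axis) against the summed normalized counts of the microglia and macrophage, endothelial and mural markers (horizontal, log axis), with a numbered point for each library. Glul and the summed microglia and macrophage markers are in the same order in all 6 libraries, from control library 2 to control library 1. Without the 2 outermost libraries r is 0.0925 for Vim and -0.0405 for Gfap.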

How the data were processed

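RNA from FAC-sorted VECs of 3 Bmal1;CKO and 3 control animals was amplified with Smart v4, and Nextera XT libraries were sequenced. The authors used FastQC, Trimmomatic, Bowtie on mm10 (Ensembl GRCm38 v87), featureCounts and DESeq2. The Bowtie version and the use of strand are not given in the sources used here. The deposited unit is a signal: reads per gene after division by a size factor that DESeq2 sets for a library. The table also holds the authors' mean, log2 fold change, standard error, Wald statistic, p-value and adjusted p, which were not used. Columns name the genotype and a number from 1 to 6 that does not match the numbering of the samples, so each was used as a replicate of its genotype.

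Multiplying by the size factor gave whole reads (within 0.1) for 100% of the values. Genes that reached 10 reads in 3 or more libraries were tested with limma-trend (limma 3.58.1, R 4.3.3) on log2(normalized count + 1). The model held genotype alone, with Benjamini-Hochberg adjustment over all of them. edgeR 4.0.16 (quasi-likelihood) on the recovered reads called 0 genes at FDR < 0.05 and 777 at an unadjusted p under 0.05. Alternatives were edgeR with the size factors, DESeq2 1.42.0 without shrinkage, limma-voom, pseudocounts of 0.5 and 10, a filter of at least 1 read in total or of at least 10 in every library, and each library left out. TMM-scaled values for the overlap of the groups were added after seeing the data. The tests were also run on simulated data with large changes set in and a spread between libraries that was not taken from these data. That run therefore does not measure how well the tests do on these libraries. Coordinates and exon lengths were from GENCODE M21 (GRCm38), which held 55227 of 55487 identifiers. Promoters were from RefSeq.

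The genes and lists were chosen with earlier results of these data known. Named are all 10 glial genes, and of each list of related genes those at an unadjusted p under 0.05 or without overlap, the highest and the lowest. Markers of other cell types are given as counts and sums. Some results are not reported here. For Rlbp1 and Gfap, the 3 genes of most similar pattern are named. Other genes were named after their values were seen. Summaries were made in Python 3.11.15 (numpy 2.4.6, pandas 2.3.3), and figures with matplotlib 3.10.9.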

Additional observations from a re-analysis of the deposited data

How the results depend on the processing

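Of the values of the 8 tested glial genes under the alternatives, 104 kept the direction and the side of the threshold and 8 turned in sign. With 1 library left out, Slc1a3 ran from -0.12 to 0.11, Vim from -0.44 to 0.025, Gfap from -1.32 to 0.43 and Pdgfra from -0.85 to 2.38 on the log2 scale. Pdgfra was -0.39 with edgeR and TMM scaling, -0.37 with edgeR and the size factors and -0.37 with DESeq2. The median of the Müller glia genes ran from 0.059 (without control library 1) to 0.33. In all alternatives, 0 of the glial genes passed FDR < 0.05. Across all genes, the count at that FDR was 0 with limma-trend, 67 with DESeq2, 1 with at least 1 read in total, 1 with at least 10 reads in every library, and 0 to 6 with 1 library left out (6 without control library 1). The count at an unadjusted p under 0.05 ran from 318 (without Bmal1;CKO library 5) to 2332 (without control library 3), against 1007. The filter on reads was applied anew for each library left out, so these counts may come from different numbers of tested genes. The cause of these changes was not tested, and the tests with fewer libraries rest on 5 libraries. No paired analysis was possible because the numbers in the table's columns, 1 to 6, are not the replicate numbers of the samples' labels and the groups share none. With 3 libraries a group and the spread between them, small differences in the tested genes were not detectable. Aqp4 and Pax2 were near 0 reads in most libraries and fell below the filter on reads.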
